A study of Chlamydomonas reinhardtii with 6 samples.

Results

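The 10 genes described here encode heat shock chaperones and a membrane-stress protein of the unicellular green alga Chlamydomonas reinhardtii. They were chosen by gene identifier, and are HSP22A, HSP22C, HSP22E, HSP22F, HSP70A, HSP70B, HSP90A, HSP90C, CLPB3 and VIPP2, 10 of the 17736 gene models in the table. The names came with that list of identifiers, and neither the table nor the gene reference pairs identifiers with names. All 10 had a mean of at least 1 FPKM (a gene's count divided by its length and by the library's total) over the 6 libraries, which placed them among the 10878 genes tested. The study compared wild type (WT) with a knockout of CMD1 (cmd1 KO), an algal relative of the TET dioxygenases that modify 5-methylcytosine in DNA, and asked how loss of CMD1 changed gene expression. Both genotypes were in strain CC125, with 3 biological replicates each. Every culture grew at 25 °C in acetate medium (TAP) in dim light of 20 µmol photons, and was then put into Sueoka's HSM, a salt medium, in brighter light of 300 µE. No library came from cells left in dim light. The labels do not say how the knockout was made, how many mutant clones there were or how long the light lasted, and the level of CMD1 itself was not analysed here.

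Heat shock chaperones bind proteins that have lost their fold. Small heat shock proteins (HSP22) hold such proteins in a soluble state, HSP70 and HSP90 refold or mature them at the cost of ATP, and ClpB proteins pull aggregates apart. In Chlamydomonas the cytosol and the chloroplast have their own sets, and heat shock transcription factor HSF1 drives many of these genes in heat and other stresses. Light alone induces HSP70A and HSP70B, and VIPP2 acts with HSP22E and HSP22F at stressed chloroplast membranes.

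The gene counts summed to between 38875025 and 47869886 per library, and the 10 genes together held 0.0299% to 0.350% of them. Values are given on 2 scales, since these divide the libraries differently. FPKM divides by library size alone. CPM scaled by the trimmed mean of M-values (TMM CPM) is set so that the typical gene stays level between libraries. With TMM the median log2 ratio of cmd1 KO to WT over all tested genes was -0.06, -0.09 and -0.01 in the same-numbered pairs 1, 2 and 3, and with library size alone it was -1.41, -1.50 and -0.33. Both scales are relative, library size alone to all counts of the library and TMM to the typical gene. On either of them less RNA per cell cannot be told apart from fewer cells making it. Replicate 3 is shown apart from replicates 1 and 2, as was set when the genes were chosen with earlier results of these data known. TMM factors, which multiply the library sizes, were 1.31, 1.30 and 1.72 in WT replicates 1, 2 and 3. They were 0.511, 0.485 and 1.38 in cmd1 KO, so by this measure cmd1 KO replicates 1 and 2 stood away from the other libraries.

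**Figure D1:**
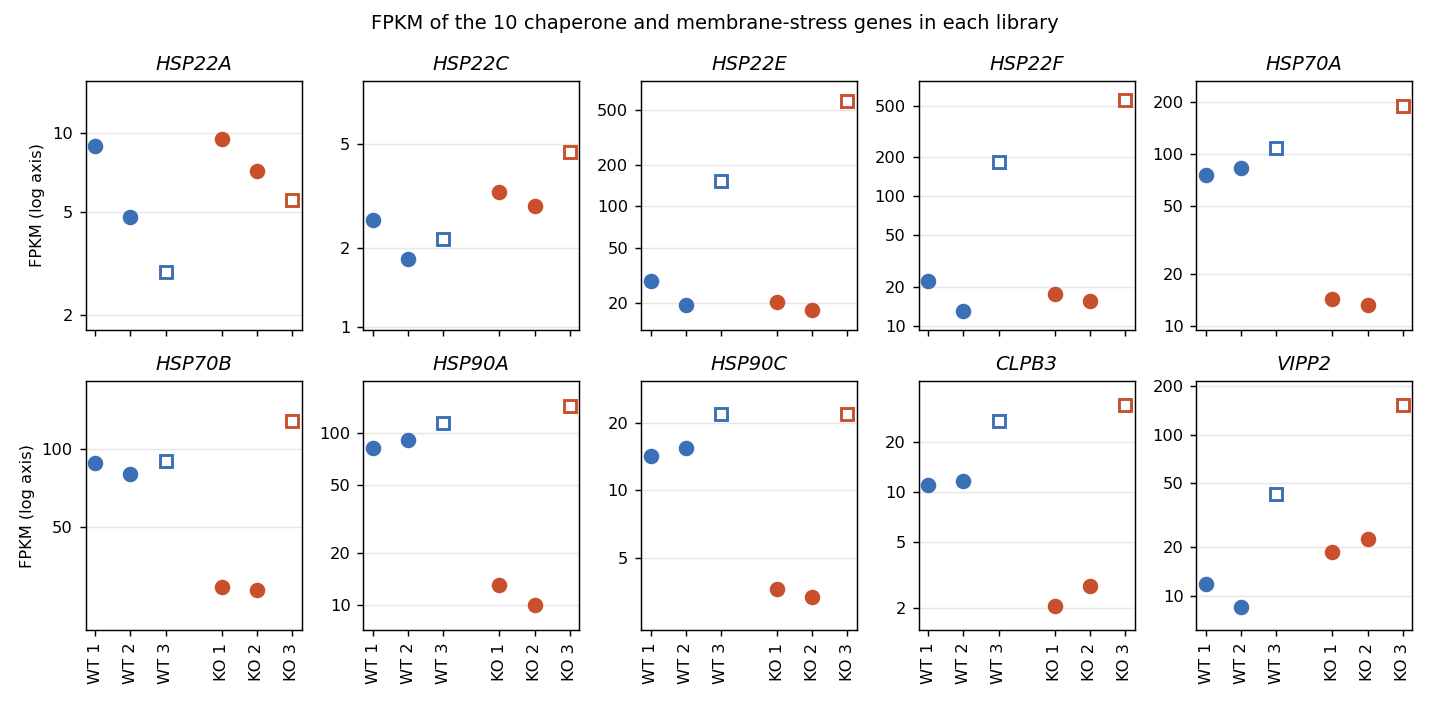
FPKM of each gene in the 6 libraries on log axes, with WT in blue, cmd1 KO in red, filled circles for replicates 1 and 2 and open squares for replicate 3. HSP22E and HSP22F were lowest, between 13.0 and 29.0 FPKM, in replicates 1 and 2 of both genotypes and highest, at 574 and 553 FPKM, in cmd1 KO replicate 3.

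The chloroplast small heat shock genes HSP22E and HSP22F set replicate 3 apart from replicates 1 and 2, and among the libraries of replicate 3 they were far higher in cmd1 KO. HSP22E (Cre14.g617450.v5.5, chromosome 14, 1398588 to 1400061, v5.5 assembly) had 1603, 979 and 7324 counts in WT replicates 1, 2 and 3, and 1202, 878 and 27314 in cmd1 KO replicates 1, 2 and 3. These counts gave 29.0, 19.3 and 153 FPKM in WT and 20.5, 18.0 and 574 FPKM in cmd1 KO. The 2 libraries of replicate 3 were above all the others, and the genotypes overlapped. HSP22F (Cre14.g617400.v5.5, chromosome 14, 1396617 to 1398388) lies 199 bases from HSP22E and had 1521, 816 and 11013 counts in WT and 1279, 939 and 32752 in cmd1 KO. Its FPKM was 22.1, 13.0 and 185 in WT and 17.5, 15.5 and 553 in cmd1 KO, the same order of libraries at the top. In replicate 3 the TMM-scaled cmd1 KO level was 4.63-fold the WT level for HSP22E and 3.69-fold for HSP22F. By library size alone these ratios were 3.72-fold and 2.97-fold. Only 26 of the 10878 tested genes had a larger TMM ratio than HSP22E in pair 3, and 45 had a larger ratio than HSP22F. Each of these ratios rests on 1 library per genotype and has no replicate check.

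Within replicates 1 and 2 the direction of HSP22E and HSP22F depended on the scale. With TMM, HSP22E rose by a log2 difference of 1.04 (SE 0.17, n = 2 per genotype, adjusted p = 2.0e-06 in edgeR) and HSP22F by 1.28 (SE 0.18, adjusted p = 1.48e-07 in edgeR). With library size alone the log2 differences were -0.34 and -0.10, and neither passed (adjusted p = 0.0828 and 0.628 in edgeR). The genotype effect on HSP22E was larger in replicate 3 than in replicates 1 and 2 by 1.17 on the log2 scale (SE 0.28, adjusted p = 0.00144, edgeR interaction test). For HSP22F that difference was 0.60 (SE 0.31) and did not pass (adjusted p = 0.104 in edgeR), and it ranged from 0.17 without WT replicate 1 (adjusted p = 0.549) to 0.93 without WT replicate 2 (adjusted p = 0.000669), where it passed.

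VIPP2 (Cre11.g468050.v5.5, chromosome 11, 1866544 to 1871276), a relative of the thylakoid protein VIPP1 that is made under chloroplast membrane stress, was higher in cmd1 KO in each same-numbered pair on both scales. It had 1081, 717 and 3383 counts in WT and 1806, 1804 and 12095 in cmd1 KO, or 11.9, 8.60 and 42.9 FPKM against 18.7, 22.4 and 154 FPKM. On this scale WT replicate 3 lay above cmd1 KO replicates 1 and 2, so the genotypes overlapped. With TMM the values were 18.5, 13.5 and 51.4 CPM in WT and 74.0, 93.5 and 228 CPM in cmd1 KO, and every cmd1 KO library lay above every WT library. The cmd1 KO level was 3.99-fold, 6.89-fold and 4.43-fold the WT level in pairs 1, 2 and 3 with TMM, and 1.56-fold, 2.58-fold and 3.57-fold with library size alone. Within replicates 1 and 2 VIPP2 rose by a log2 difference of 2.38 (SE 0.17, n = 2 per genotype, adjusted p = 4.43e-14 in edgeR), and with library size alone by 0.99 (SE 0.17, adjusted p = 2.41e-05 in edgeR). The genotype effect in replicate 3 differed from this by -0.23 (SE 0.29), which did not pass with TMM (adjusted p = 0.512 in edgeR), and by 0.84 with library size alone, which did (adjusted p = 0.0176 in edgeR). Over all 6 libraries the log2 difference was 2.24 (SE 0.69, n = 3 per genotype), with an unadjusted p of 0.0147 and an adjusted p of 0.263 in edgeR.

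The small heat shock genes HSP22A and HSP22C were less abundant per length than HSP22E and HSP22F in every library, and with TMM neither was higher in replicate 3 than in replicates 1 and 2 of its genotype. HSP22A (Cre07.g318800.v5.5, chromosome 7, 893237 to 894946) had 486, 238 and 138 counts in WT and 547, 344 and 260 in cmd1 KO, or 8.96, 4.79 and 2.94 FPKM against 9.50, 7.18 and 5.56 FPKM. Its level was lowest in replicate 3 of each genotype, and the genotypes overlapped on both scales. HSP22C (Cre03.g145787.v5.5, chromosome 3, 640717 to 642631) had 189, 123 and 139 counts in WT and 258, 190 and 298 in cmd1 KO. Its FPKM was 2.56, 1.82 and 2.17 in WT and 3.29, 2.91 and 4.68 in cmd1 KO, and every cmd1 KO library lay above every WT library on this scale and with TMM. Within replicates 1 and 2, with TMM, HSP22A rose by 1.65 (SE 0.21, adjusted p = 2.31e-08 in edgeR) and HSP22C by 1.87 (SE 0.24, adjusted p = 1.69e-08 in edgeR) on the log2 scale. With library size alone the differences were 0.26 and 0.49 and did not pass (adjusted p = 0.301 and 0.0701 in edgeR). In pair 3 the TMM-scaled cmd1 KO level was 2.32-fold the WT level for HSP22A and 2.64-fold for HSP22C. The interaction test did not separate these ratios from those of replicates 1 and 2 (adjusted p = 0.408 and 0.376 in edgeR).

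HSP70A, the cytosolic HSP70, and HSP70B, its chloroplast counterpart, are among the abundant genes, and HSP70A had opposite genotype ratios in the sets of replicates. HSP70A (Cre08.g372100.v5.5, chromosome 8, 2518227 to 2522077) had 9640, 9699 and 12019 counts in WT and 1958, 1501 and 20937 in cmd1 KO, or 75.2, 82.5 and 108 FPKM against 14.4, 13.2 and 189 FPKM. The lowest and the highest libraries were thus all cmd1 KO, with the WT libraries between them. With TMM, HSP70A fell by 1.15 on the log2 scale within replicates 1 and 2 (SE 0.15, n = 2 per genotype, adjusted p = 1.71e-08 in edgeR) and by 2.53 with library size alone, whereas in pair 3 cmd1 KO stood at 2.16-fold WT. The difference between these effects was 2.25 (SE 0.25, adjusted p = 6.82e-08, edgeR interaction test). HSP70B (Cre06.g250100.v5.5, chromosome 6, 135260 to 140425) had 14759, 12258 and 13046 counts in WT and 5258, 4269 and 18434 in cmd1 KO, or 88.0, 79.7 and 89.7 FPKM against 29.5, 28.8 and 127 FPKM. The 3 WT libraries lay close together, with cmd1 KO below them in replicates 1 and 2 and above them in replicate 3. With TMM the difference within replicates 1 and 2 was -0.15 (SE 0.14) and did not pass (adjusted p = 0.318 in edgeR). With library size alone HSP70B fell by 1.54 (SE 0.14, adjusted p = 2.14e-09 in edgeR). The interaction was 0.96 (SE 0.24, adjusted p = 0.00189 in edgeR), with cmd1 KO at 1.75-fold WT in pair 3.

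HSP90A, the cytosolic HSP90, had the same order of libraries as HSP70A by FPKM, and the chloroplast HSP90C had smaller differences. HSP90A (Cre09.g386750.v5.5, chromosome 9, 264243 to 268808) had 10906, 11060 and 13165 counts in WT and 1864, 1184 and 16349 in cmd1 KO, or 81.9, 90.7 and 114 FPKM against 13.2, 10.1 and 142 FPKM. Here too cmd1 KO replicates 1 and 2 were lowest and cmd1 KO replicate 3 was highest. HSP90A fell by 1.53 on the log2 scale within replicates 1 and 2 with TMM (SE 0.15, adjusted p = 9.05e-11 in edgeR) and by 2.91 with library size alone, and its pair 3 ratio was 1.54-fold. The effects differed by 2.15 (SE 0.26, adjusted p = 2.97e-07, edgeR interaction test). HSP90C (Cre12.g514850.v5.5, chromosome 12, 3726829 to 3732140), which works with HSP70B in the chloroplast, had 1888, 1882 and 2521 counts in WT and 513, 390 and 2515 in cmd1 KO. Its FPKM was 14.2, 15.5 and 21.9 in WT and 3.64, 3.32 and 22.0 in cmd1 KO, so that the libraries of replicate 3 were level on this scale. It fell by 0.72 within replicates 1 and 2 with TMM (SE 0.16, adjusted p = 0.000163 in edgeR), by 2.11 with library size alone, and was at 1.24-fold in pair 3. The interaction was 1.03 (SE 0.27, adjusted p = 0.00288 in edgeR).

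CLPB3 (Cre02.g090850.v5.5, chromosome 2, 2340618 to 2348785), the chloroplast disaggregase, had 1982, 1895 and 4172 counts in WT and 387, 426 and 5166 in cmd1 KO. These gave 11.1, 11.6 and 27.0 FPKM in WT and 2.05, 2.70 and 33.6 FPKM in cmd1 KO, with the libraries of replicate 3 highest and cmd1 KO replicates 1 and 2 lowest. CLPB3 fell by 0.89 on the log2 scale within replicates 1 and 2 with TMM (SE 0.17, adjusted p = 2.12e-05 in edgeR) and by 2.28 with library size alone. In pair 3 cmd1 KO stood at 1.54-fold WT with TMM and at 1.24-fold with library size alone, and the interaction was 1.50 (SE 0.29, adjusted p = 0.000115 in edgeR).

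Within replicates 1 and 2, 9 of the 10 genes passed the test with TMM. The 4 small heat shock genes and VIPP2 rose in cmd1 KO, and HSP70A, HSP90A, HSP90C and CLPB3 fell, which left HSP70B as the only member that did not pass edgeR's quasi-likelihood test at an adjusted p of 0.05. Among all tested genes 34.3% rose and 37.8% fell by the same test, so 9 calls among 10 genes is not far above the share of calls in the whole table. With library size alone 1 member (VIPP2) rose and 5 fell (HSP70A, HSP70B, HSP90A, HSP90C and CLPB3), beside 6.24% and 79.2% of all tested genes. VIPP2 rose, and HSP70A, HSP90A, HSP90C and CLPB3 fell, on both scales. The median log2 ratio of pairs 1 and 2 over all tested genes was -0.08 with TMM and -1.45 with library size alone. A gene that fell with TMM thus fell further with library size alone, so that scale is no separate check of a fall. Relative to the TMM median of its length class, VIPP2 stood at 1.95 and CLPB3 at 0.36. HSP90A, HSP70A and HSP90C stood at -0.98, -0.59 and -0.17. The tests within replicates 1 and 2 compare 2 libraries with 2 and measure only the spread between replicates 1 and 2.

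**Figure D2:**
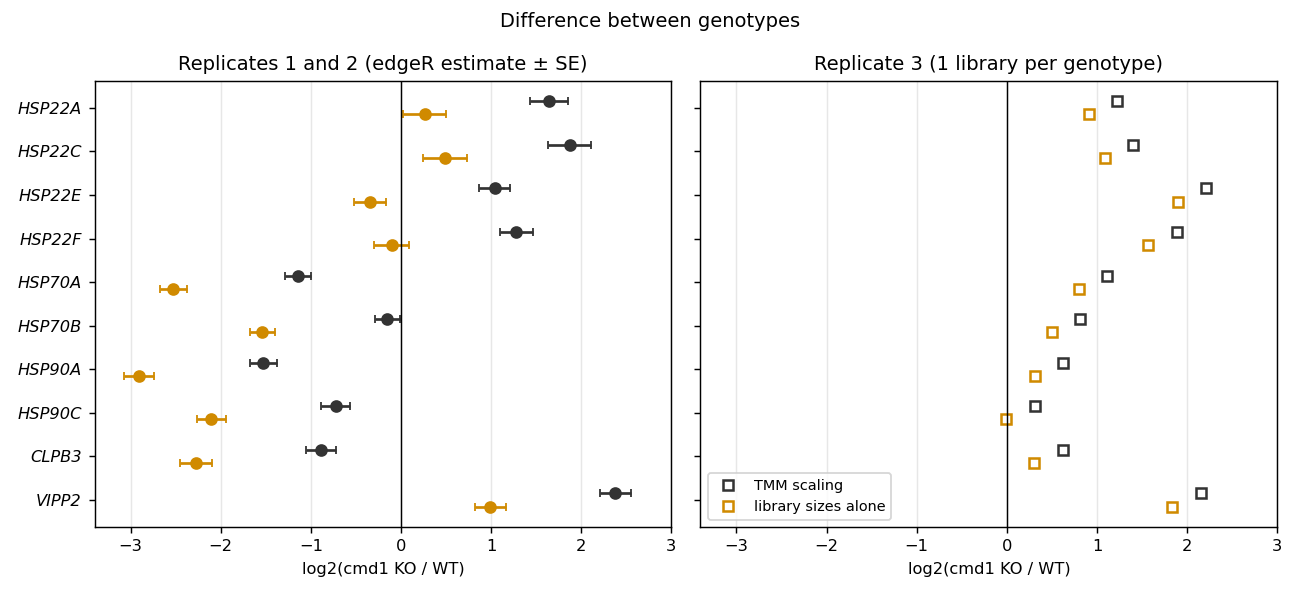
Log2 ratio of cmd1 KO to WT for each gene, left as the edgeR estimate within replicates 1 and 2 with its SE, right as the ratio of the single libraries of replicate 3, in black with TMM scaling and in orange with library sizes alone. In replicate 3 all 10 genes were above 0 with TMM, up to 2.21 for HSP22E, whereas in replicates 1 and 2 the values ran from -1.53 for HSP90A to 2.38 for VIPP2.

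In replicate 3 every member was higher in cmd1 KO with TMM, and 9 of 10 with library size alone, where HSP90C was level at 0.996-fold. The median log2 ratio of the 10 genes was 1.16 with TMM and 0.85 with library size alone, beside -0.01 and -0.33 over all tested genes. At least a 2-fold higher level in cmd1 KO was seen for 6 of the 10 (HSP22A, HSP22C, HSP22E, HSP22F, HSP70A and VIPP2) with TMM, against 3.08% of all tested genes. With library size alone it was seen for 4 (HSP22C, HSP22E, HSP22F and VIPP2), against 1.3% of tested genes. There is 1 library per genotype here, so these are folds between libraries and carry no test.

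In edgeR's interaction test 6 of the 10 genes passed, all with a more positive effect of the knockout in replicate 3: HSP22E, HSP70A, HSP70B, HSP90A, HSP90C and CLPB3. Among all tested genes 27.3% were more positive and 23.4% more negative by this test. It takes the spread of the single replicate 3 libraries from replicates 1 and 2. The 6 stayed past the threshold with library size alone, where HSP22F and VIPP2 joined them, beside 58.8% of all tested genes more positive on that scale.

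Over all 6 libraries together none of the 10 genes passed edgeR's quasi-likelihood test for genotype, as none of the tested genes did (0% of 10878). At an unadjusted p under 0.05 there were 2 members, HSP22C and VIPP2, both higher in cmd1 KO, as were 9.14% of tested genes. With the replicate numbers as a block there were 5, the 4 small heat shock genes and VIPP2, all higher, as were 13% of tested genes, and the smallest adjusted p was 0.180 in edgeR. Without the block HSP22C had a log2 difference of 1.76 (SE 0.40) and an adjusted p of 0.263 in edgeR. These were also the 2 members whose TMM-scaled genotypes did not overlap, all cmd1 KO above all WT, as in 9.43% of tested genes. No member had all cmd1 KO libraries below all WT libraries, which 13.6% of tested genes had. DESeq2 called the same 2 members, HSP22C (adjusted p = 0.00561) and VIPP2 (adjusted p = 0.0215), beside 3.89% of all genes with an adjusted p called higher, and gave no p for HSP22E and HSP22F. Without cmd1 KO replicate 3, edgeR called 6 members, of which HSP22A and HSP22C rose and HSP70A, HSP90A, HSP90C and CLPB3 fell, beside 18.1% of tested genes higher and 20.7% lower in that fit.

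The libraries of replicate 3 also differed from replicates 1 and 2 of their own genotype, by 1 library in each. In WT, replicate 3 was at least 2-fold above the mean of replicates 1 and 2 (of log2 TMM CPM) for HSP22F at 8.34-fold, HSP22E at 4.93-fold and VIPP2 at 3.24-fold, as were 16.5% of tested genes. CLPB3 followed at 1.82-fold. HSP70A, HSP70B, HSP90A and HSP90C lay between 0.819-fold and 1.13-fold in WT. In cmd1 KO, replicate 3 was at least 2-fold above for 7 members, as were 29.1% of tested genes. These were HSP22F at 12.2-fold, HSP22E at 10.9-fold, CLPB3 at 5.20-fold, HSP70A at 4.99-fold, HSP90A at 4.50-fold, VIPP2 at 2.74-fold and HSP90C at 2.30-fold. HSP22A went the other way in both genotypes, to 0.345-fold in WT and 0.246-fold in cmd1 KO, and with library size alone to 0.452-fold and 0.680-fold. HSP22C stood at 0.771-fold and 0.551-fold with TMM, and at 1.01-fold and 1.52-fold with library size alone. The shifts were larger for most members with library size alone, where 4 members in WT (with CLPB3) and 8 in cmd1 KO (with HSP70B, at 4.41-fold) were at least 2-fold above, beside 26% and 64.6% of tested genes. In cmd1 KO that scale gave 33.8-fold for HSP22F, 30.1-fold for HSP22E and 14.4-fold for CLPB3. This shift also moved with gene length: with TMM the median log2 difference in cmd1 KO ran from -1.02 in the shortest of 5 length classes to 1.42 in the longest. Measured from the median of its length class, CLPB3 was 0.96 and HSP90C 0.62 higher on the log2 scale, both under 2-fold, while HSP70A was 1.74 and HSP90A 1.59 higher.

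**Figure D3:**
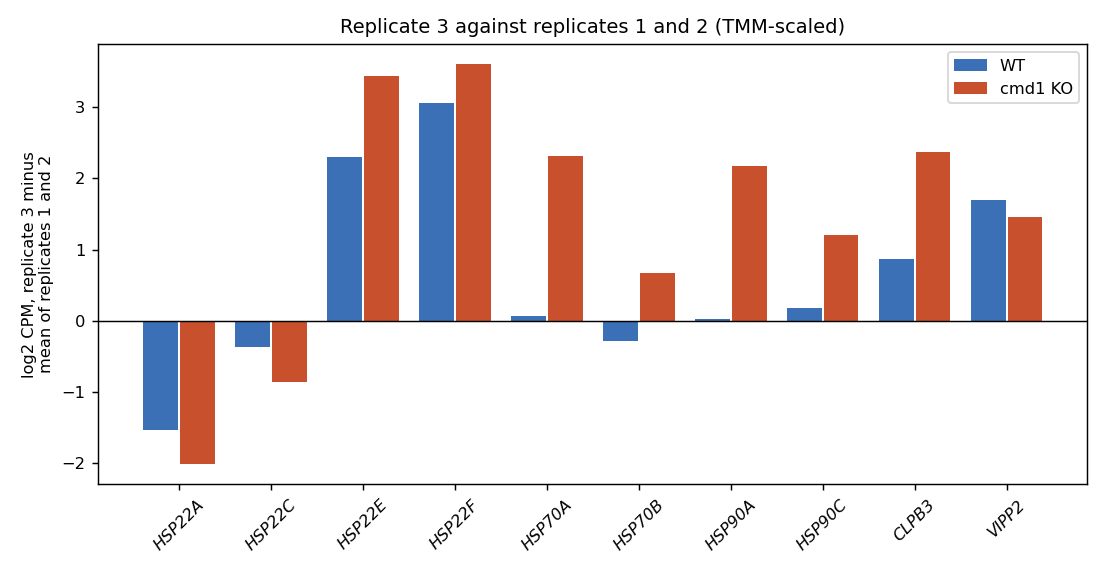
TMM-scaled log2 CPM of replicate 3 minus the mean of replicates 1 and 2 of the same genotype, WT in blue and cmd1 KO in red, with bars starting at 0 and 1 library behind each replicate 3 value. HSP22E, HSP22F and VIPP2 were above 1 in both genotypes, HSP70A, HSP90A, HSP90C and CLPB3 were above 1 in cmd1 KO and below 1 in WT, and HSP22A was below -1 in both.

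By rank, HSP22E moved from place 1259 and 1681 of the tested genes in WT replicates 1 and 2 to place 396 in WT replicate 3, and from 1091 and 1186 in cmd1 KO replicates 1 and 2 to 164 in cmd1 KO replicate 3. HSP22E and HSP22F together made up 14.8% and 9.86% of the summed FPKM of the 10 genes in WT replicates 1 and 2 and 45.3% in WT replicate 3. In cmd1 KO these shares were 28.8% and 27.0% in replicates 1 and 2 and 62.4% in replicate 3. The most abundant member per length was HSP70B in WT replicate 1 and in cmd1 KO replicates 1 and 2, HSP90A in WT replicate 2, HSP22F in WT replicate 3 and HSP22E in cmd1 KO replicate 3. HSP70A, HSP70B and HSP90A lay between 75.2 and 90.7 FPKM in WT replicates 1 and 2, and their order differed between these libraries. HSP22C was lowest in every library except cmd1 KO replicates 1 and 2, where CLPB3 was lower.

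Ratios between members within a library do not depend on how libraries are scaled. The ratio of cytosolic HSP70A to chloroplast HSP70B was 0.855, 1.04 and 1.21 in WT replicates 1, 2 and 3, and 0.487, 0.460 and 1.49 in cmd1 KO. For HSP90A over HSP90C the ratio was 5.76, 5.86 and 5.21 in WT and 3.62, 3.03 and 6.48 in cmd1 KO. Both ratios of cytosolic to chloroplast form were therefore lower in cmd1 KO than in WT in pairs 1 and 2 and higher in pair 3. The neighbours HSP22E and HSP22F stayed near each other, at 1.31, 1.49 and 0.827 in WT and 1.17, 1.16 and 1.04 in cmd1 KO. The next 3 ratios were chosen after the values were seen. They compare genes of different length classes, whose medians also moved with the genotype. VIPP2 over HSP70B was 0.135, 0.108 and 0.478 in WT and 0.633, 0.779 and 1.21 in cmd1 KO, with every cmd1 KO library above every WT library. Relative to their length classes, VIPP2 at 1.95 stayed above HSP70B at 0.40 in pairs 1 and 2. In pair 3 VIPP2 was at 2.12 and HSP70B at 0.91. Whether the genotypes still separate in every library once the length classes are allowed for was not tested. HSP22E over HSP70B was 0.330, 0.243 and 1.71 in WT and 0.694, 0.625 and 4.50 in cmd1 KO, higher in cmd1 KO in each same-numbered pair. Measured from their length classes in pairs 1 and 2, HSP22E at 0.10 on the log2 scale was below HSP70B at 0.40, the opposite direction. CLPB3 over HSP70B was 0.126, 0.146 and 0.301 in WT and 0.0693, 0.0940 and 0.264 in cmd1 KO, lower in cmd1 KO in each pair. Measured from their length classes, CLPB3 at 0.36 was close to HSP70B at 0.40 in pairs 1 and 2. In pair 3 these values were 0.71 and 0.91.

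**Figure D4:**
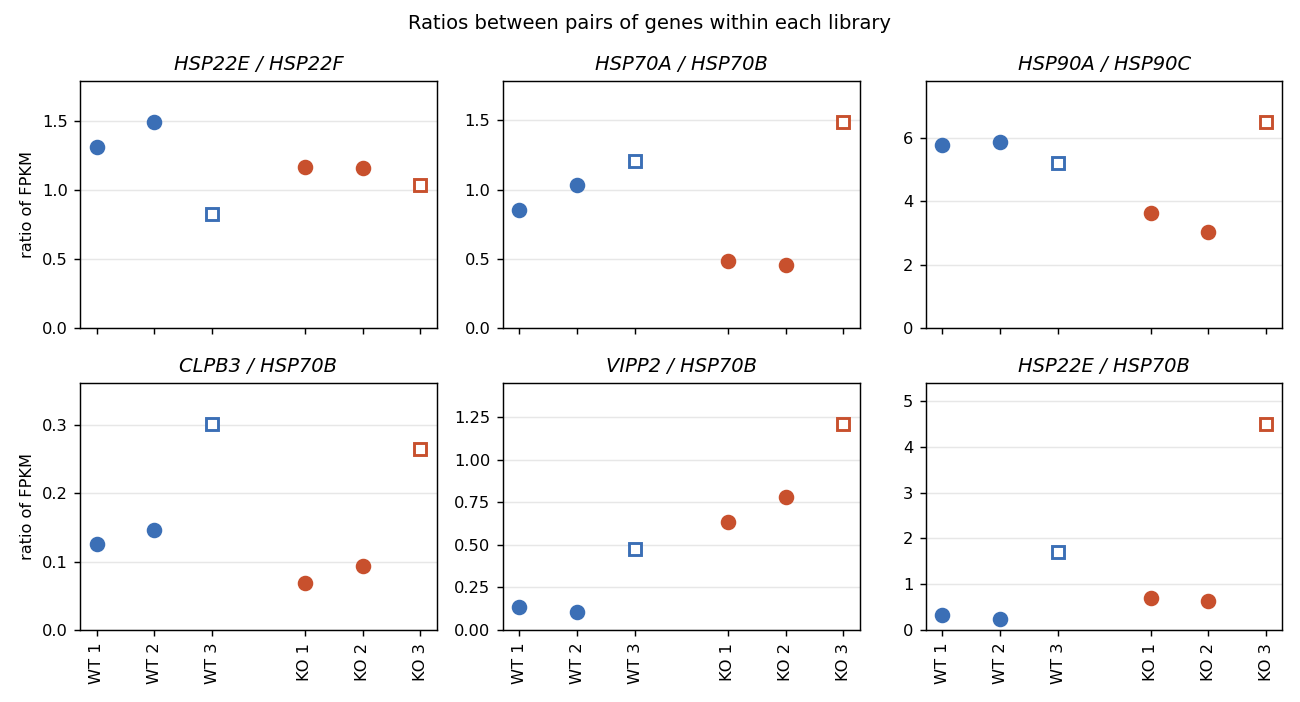
Ratio of the FPKM of 2 genes within each library on linear axes from 0, WT in blue, cmd1 KO in red, filled circles for replicates 1 and 2 and open squares for replicate 3. HSP70A over HSP70B and HSP90A over HSP90C were lowest in cmd1 KO replicates 1 and 2, at 0.460 to 0.487 and 3.03 to 3.62, and VIPP2 over HSP70B was at least 0.633 in cmd1 KO and at most 0.478 in WT. The ratios take no account of the shift of the length classes between genotypes.

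Gene length moved with the genotype ratio in replicates 1 and 2 across the whole table, and the members that rose are shorter than those that fell. The 4 small heat shock genes have counted lengths of 1203 to 1639 bases and VIPP2 of 2019 bases, whereas HSP70A, HSP70B, HSP90A, HSP90C and CLPB3 have 2844 to 3952 bases. Over the tested genes in 5 equal classes of length, the median TMM log2 ratio of pairs 1 and 2 was 0.97 in the shortest class, which holds HSP22A, HSP22E and HSP22F, and 0.44 in the next, which holds HSP22C and VIPP2. It was -0.55 in the class of HSP70A, HSP70B, HSP90A and HSP90C and -1.26 in the longest class, that of CLPB3. Measured from its own class, VIPP2 stood 1.95 higher, HSP22C 1.45 higher and HSP22A 0.73 higher, and HSP22F and HSP22E lay 0.36 and 0.10 above the class median. HSP90A was at -0.98, HSP70A at -0.59 and HSP90C at -0.17. HSP70B and CLPB3 changed sign, to 0.40 and 0.36 above the median of their class. From pairs 1 and 2 to pair 3 the median of the longest class was 1.17 higher and CLPB3 was 1.52 higher, or 0.35 relative to its class. That difference from the class was 0.50 for HSP70B, 0.57 for HSP90C, 1.70 for HSP90A, 1.80 for HSP70A and 1.93 for HSP22E. Among the members that did not pass the interaction test with TMM it was 1.34 for HSP22F, 0.30 for HSP22A, 0.17 for VIPP2 and -0.07 for HSP22C. In pair 3 the class medians lay between -0.10 and 0.18, and all 10 genes stood above the median of their class, by 0.40 for HSP90C to 2.12 for VIPP2. The part of gene length in these differences was not tested.

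**Figure D5:**
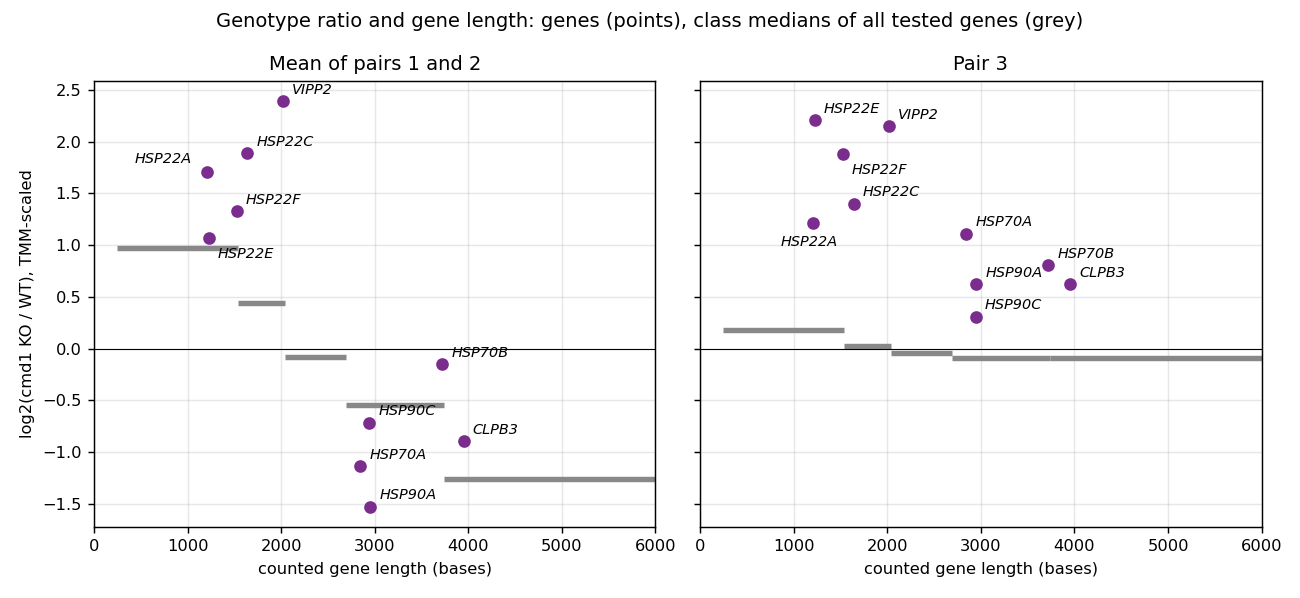
TMM-scaled log2 ratio of cmd1 KO to WT against counted gene length in bases, left as the mean of pairs 1 and 2 and right for pair 3, with points for the 10 genes and grey lines for the medians of all tested genes in 5 length classes, the longest of which runs past the axis. In pairs 1 and 2 CLPB3 and HSP70B lay above the median of their class while below 0, and in pair 3 all 10 genes lay above the class medians.

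The authors' own comparison gave VIPP2 the smallest p among the 10, and edgeR with a replicate 3 term, no TMM factors and no filter on low values gave the same fold changes and p-values for all 10. In the authors' deposited table VIPP2 had a log2 fold change of 1.28 with an unadjusted p of 0.00413. HSP90C, HSP90A and CLPB3 had log2 fold changes of -1.42, -1.92 and -1.45 in the authors' deposited table, with unadjusted p-values of 0.0254, 0.0346 and 0.0458. The other 6 genes had unadjusted p-values between 0.0805 for HSP70A and 0.472 for HSP22E in the authors' deposited table. In the edgeR fit with the same values, 9112 of 17736 gene models were lower in cmd1 KO at an unadjusted p under 0.05, and 273 were higher. The median log2 difference over all gene models in that fit was -1.22, near the values of HSP90C and CLPB3. None passed adjustment, and the smallest adjusted p was 0.0541 in edgeR, the value VIPP2 had.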

How the data were processed

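FastQC 0.11.5, TopHat2 and Cufflinks 2.0.0 are named in the submitters' processing notes, and per the labels' protocols a stranded total RNA kit was used. No source used here gives the genome build, strand setting or counting tool. The authors deposited whole-number counts per gene and FPKM values, per the file headers. The FPKM equal count over gene length and column total, as the implied lengths were whole for 100% of genes within 0.01 base. The authors' comparison of cmd1 KO with WT was deposited as a log2 fold change, a log2 mean level, a score (F) and an unadjusted p-value per gene. By locus tag, 17733 identifiers were found in the RefSeq table of assembly v5.5, which gave positions and 0 symbols.

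Genes whose mean reached 1 FPKM were fitted with edgeR 4.0.16 (R 4.3.3, quasi-likelihood test, two-sided, TMM factors, Benjamini-Hochberg adjustment over all 10878), for genotype over 6 libraries, genotype within replicates 1 and 2, and the interaction of genotype with replicate 3. edgeR was checked on simulated counts in which a set of genes changed. These counts held no length trend and no shift of the other genes between libraries, so the check does not bear on the scaling. DESeq2 1.42.0, limma 3.58.1 on log2(FPKM + 1), other scalings, no filter, a replicate block and leaving out each library were alternatives. For the interaction only libraries of replicates 1 and 2 were left out. A term for replicate 3, the comparison of replicate 3 with replicates 1 and 2 and the 2-fold limit were added after the data were seen. Ratios of single libraries were taken on log2 CPM (prior count 1). Python 3.11.15, pandas 2.3.3, numpy 2.4.6 and matplotlib 3.10.9 were used.

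The members, lists and tests were chosen with earlier results of these data known. Named genes are the 10 members, the 2 tested genes nearest to their mean profile and 2 neighbouring genes singled out after their values were seen. A wider list of related genes, foreseen by protein similarity or reference names, was not analysed here. The labels number the libraries 1 to 3 in each genotype, and same-numbered libraries were taken as pairs. Their deviations from the group means correlated at 0.530, 0.427 and 0.547. Libraries of unlike number were not compared, and a shift shared by the replicate 3 libraries could alone make all 3 values positive. Whether WT replicate 1 belongs with cmd1 KO replicate 1 rather than replicate 2 was thus not tested. The edgeR p-values measure the spread between these cultures only. Reads shared between near-identical copies, such as HSP22E and HSP22F may be, were not separated.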

Additional observations from a re-analysis of the deposited data

Results flagged for a closer look

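For 6 genes edgeR's interaction test found a difference in the effect of the knockout between the sets of replicates. The difference of the log2 effects, replicate 3 minus replicates 1 and 2 with TMM scaling, was 2.25 for HSP70A, 2.15 for HSP90A, 1.50 for CLPB3, 1.17 for HSP22E, 1.03 for HSP90C and 0.96 for HSP70B. The median of all tested genes moved with length in the same comparison. Relative to its length class, the ratio of pair 3 minus that of pairs 1 and 2 was 1.34 for HSP22F, which did not pass. For the 6 genes that passed it was 0.35 for CLPB3, 0.50 for HSP70B, 0.57 for HSP90C, 1.70 for HSP90A, 1.80 for HSP70A and 1.93 for HSP22E. All 6 were positive, and all 6 remained past an adjusted p of 0.05 without each library of replicates 1 and 2 in turn. Replicate 3 has 1 library per genotype, so what sets its cultures apart cannot be told apart from the effect of the knockout in them.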

How the results depend on the processing

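The 9 calls within replicates 1 and 2 and the 6 of the interaction test held under DESeq2, its size factors in edgeR, no low filter, the replicate block and an adjusted p of 0.1. Leaving out each library gave 9 and 6 to 7 calls. Library sizes alone gave 6 calls (1 higher, 5 lower) and 8, the latter beside 58.8% of all tested genes. They turned HSP22E (-0.34) and HSP22F (-0.10) within replicates 1 and 2, and HSP22A (0.65), HSP22C (0.61) and VIPP2 (0.84) in the interaction. Over all 6 libraries, leaving out 1 library gave 0 to 6 calls and DESeq2 gave 2, and the other alternatives 0. Uncalled log2 differences reversed there for HSP70A, HSP70B and CLPB3 with library sizes alone (-0.30, -0.48, -0.38), limma on log2(FPKM + 1) (-1.35, -0.83, -1.15), limma on log2(FPKM + 0.1) (-1.40, -0.84, -1.38) and library sizes with a term for replicate 3 (-1.51, -0.87, -1.45). The replicate block reversed HSP70A (-0.42) and CLPB3 (-0.40) and changed no call, and the term for replicate 3 gave -0.42 and -0.39. Leave-one-out ranges were -0.15 to 3.14 (HSP22E), -0.46 to 3.53 (HSP22F), -1.16 to 0.44 (HSP70A), -0.059 to 0.34 (HSP70B) and -1.23 to 0.45 (CLPB3). Measured from the length class median, HSP70B and CLPB3 reversed to 0.40 and 0.36 in pairs 1 and 2. The cause of these changes was not tested. HSP22C, with 123 to 298 counts per library, is the least precisely counted member.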

Other observations

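The 2 tested genes whose profile over the 6 libraries was nearest to the mean profile of the 10 members were Cre12.g544600 and Cre03.g146287, at a root mean square difference of 0.12 and 0.16 in centred log2 CPM. Their FPKM was 3.25, 2.42 and 4.82 in WT and 1.24, 1.44 and 9.90 in cmd1 KO for Cre12.g544600, and 4.97, 4.83 and 12.1 in WT and 2.35, 2.57 and 17.5 in cmd1 KO for Cre03.g146287. Among the members HSP22E and HSP22F were nearest to each other, at 0.27, and no other tested gene was nearer to either. HSP70A and HSP90A were nearest to each other at 0.23, though 15 other tested genes were nearer to HSP70A and 79 to HSP90A. For the remaining members, many more tested genes were nearer than the nearest member. There were 160 for CLPB3, 226 for VIPP2, 653 for HSP22A, 1109 for HSP22C, 1114 for HSP70B and 1491 for HSP90C.

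The annotation places 18 other genes directly beside the members, none overlapping a member, and 11 of them were tested. In pair 3 only Cre07.g318850, 91 bases from HSP22A, was at least 2-fold higher in cmd1 KO with TMM, at a log2 ratio of 1.95, after 0.97 and 1.39 in pairs 1 and 2. Its mean level was 1.86 FPKM, near the limit of 1 FPKM for testing. The other 10 lay between -0.45 and 0.53 in pair 3. Cre14.g617500, which starts 1 base after HSP22E, had a log2 difference of 2.31 between WT replicate 3 and WT replicates 1 and 2, close to the 2.30 of HSP22E, but -0.07 in pair 3 against 2.21. In cmd1 KO the same difference between replicates was 1.57 for Cre14.g617500 and 3.44 for HSP22E. The mean log2 ratio of pairs 1 and 2 was 0.67 and 1.07. These genes were singled out after their values were seen.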
